A study of Homo sapiens with 6 samples.

Results

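The genes described here encode histone and DNA modifying enzymes in ARPE-19, a human cell line that came from the retinal pigment epithelium. They were taken by symbol, and not by any measured value, from the autosomal loci with an annotated protein-coding transcript: lysine demethylases (KDM), lysine methyltransferases (KMT2, KMT5, SETD, EHMT, EZH), arginine methyltransferases (PRMT), lysine acetyltransferases (KAT), deacetylases (HDAC, SIRT), DNA methyltransferases (DNMT) and the TET enzymes. The rule, chosen with earlier results of these data known, took 79 of 60835 loci, of which 78 hold such an enzyme. 1 locus came in only through the pseudogene symbol KMT5AP3 and is left out of the counts by class (log2 change 0.52, SE 0.364, edgeR adjusted p = 0.365). HDAC6, HDAC8, KDM5C and KDM6A lie on the X chromosome and were not taken.

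RNA, given as total RNA in the labels while their protocol describes oligo-dT selection, was sequenced from wild-type ARPE-19 cells kept for 72 h in high glucose medium and from the same line kept for 72 h in normal glucose medium, with 3 libraries in each group. The glucose concentrations are not given in the sources used here. Nothing in the labels states that libraries within a group were separate cultures, and p-values cover only the differences among these libraries, which can be technical. All RNA came from bulk cells of 1 line, in which fewer cells of a kind and less RNA per cell cannot be told apart.

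Writers place methyl or acetyl groups on histone tails or on cytosine, and erasers take them off. Methylation of histone H3 at lysine 4 is typical of promoters and enhancers, while methylation at lysine 9 and lysine 27 is typical of silenced chromatin. The enzymes draw on metabolites: methyltransferases on S-adenosylmethionine, acetyltransferases on acetyl-CoA, sirtuins on NAD+, and the TET and JmjC-type demethylases on 2-oxoglutarate and iron. In the retina these enzymes have been studied for their part in the lasting effects of high glucose.

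5 promoters are shown because their genes kept the call under all alternatives, or lost it under 1 of them, and lie on both sides of the comparison. SIRT7 also kept its call under all alternatives, but no promoter window was found for it. Each sequence is from RefSeq and covers the 250 bases before the RefSeq transcript start nearest to the 5′ end of the locus, in GRCh38.p14, read 5′ to 3′ on the strand of the gene. Capitals mark matches on either strand to CCAAT, the core bound by NF-Y, or to CACGTG, the E-box. SETDB2, EZH2 and SIRT1 were lower in high glucose, and KDM1A and PRMT6 were higher.
SETDB2 (chr13:49444024-49444273, plus strand): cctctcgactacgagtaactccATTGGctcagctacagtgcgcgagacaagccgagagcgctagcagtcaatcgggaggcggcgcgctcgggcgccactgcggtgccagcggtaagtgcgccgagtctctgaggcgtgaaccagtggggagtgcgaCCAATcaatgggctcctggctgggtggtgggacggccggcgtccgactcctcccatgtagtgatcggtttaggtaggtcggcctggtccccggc
EZH2 (chr7:148884292-148884541, minus strand): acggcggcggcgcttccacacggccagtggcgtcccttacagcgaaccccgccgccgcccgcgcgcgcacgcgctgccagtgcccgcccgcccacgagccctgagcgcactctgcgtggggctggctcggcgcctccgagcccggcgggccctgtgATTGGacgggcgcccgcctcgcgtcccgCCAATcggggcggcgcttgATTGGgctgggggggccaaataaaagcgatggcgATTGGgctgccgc
SIRT1 (chr10:67884406-67884655, plus strand): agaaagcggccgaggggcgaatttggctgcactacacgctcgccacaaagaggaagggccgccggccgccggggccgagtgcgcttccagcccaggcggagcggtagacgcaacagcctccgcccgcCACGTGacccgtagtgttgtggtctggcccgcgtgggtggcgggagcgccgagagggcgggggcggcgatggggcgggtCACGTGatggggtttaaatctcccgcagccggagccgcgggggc
KDM1A (chr1:23019218-23019467, plus strand): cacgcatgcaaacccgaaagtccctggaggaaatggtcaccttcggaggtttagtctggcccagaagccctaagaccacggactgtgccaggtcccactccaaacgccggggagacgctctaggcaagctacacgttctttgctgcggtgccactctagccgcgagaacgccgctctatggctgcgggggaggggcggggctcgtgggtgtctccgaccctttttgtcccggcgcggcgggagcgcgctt
PRMT6 (chr1:107056424-107056673, plus strand): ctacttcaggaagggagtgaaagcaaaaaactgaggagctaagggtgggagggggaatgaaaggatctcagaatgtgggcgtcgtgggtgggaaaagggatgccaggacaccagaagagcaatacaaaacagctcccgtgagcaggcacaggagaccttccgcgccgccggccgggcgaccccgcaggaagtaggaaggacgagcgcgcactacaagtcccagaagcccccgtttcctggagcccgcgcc
The SETDB2 sequence holds 2 matches to CCAAT, the EZH2 sequence 4, and the SIRT1 sequence 2 to CACGTG. Neither the KDM1A nor the PRMT6 sequence holds a match to either motif, which says only that these letters are not in this window. The split among these 5 does not hold for all called enzymes. CCAAT was in 6 of 12 windows of enzymes called lower and in 1 of 5 of those called higher (SIRT2). CACGTG was in 2 of the 12 and 0 of the 5, and KMT2B, SETD1A, KDM6B and KDM7A, all lower, held neither. A match describes the sequence and is no evidence of binding.

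The libraries held 81616741 to 87748820 deposited counts each, a total that overstates the depth if fragments were counted more than once. The first principal component of log2 CPM (counts scaled to the TMM library size) over all tested loci carried 49.7% of the variance and separated the groups, with all high glucose libraries at one end. The second carried 18.0% and set the third normal glucose library apart from the other libraries. That library was the farthest of its group from the group median in 39 of the 74 tested enzymes, against 11 for the first and 24 for the second. 

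Markers fit the labelled cell type in part. Of 12 tested retinal pigment epithelium markers 3 were higher and 2 lower. That is a called share of 41.7%, and the fibroblast markers below had 30.0%, beside 25.5% of protein-coding loci. KRT8 (log2 change 1.66, edgeR adjusted p = 0.0152) and KRT18 (log2 change 1.88, edgeR adjusted p = 0.00636), keratins of simple epithelia, and EZR, ezrin of the microvilli (log2 change 1.03, edgeR adjusted p = 0.0418), were higher. BEST1, a chloride channel (log2 change -2.20, edgeR adjusted p = 0.0113), and MERTK, a receptor of outer segment uptake (log2 change -1.23, edgeR adjusted p = 0.0191), were lower. RPE65, TYR, DCT and TTR were at or near 0 in all libraries. The markers summed to 575 to 664 FPKM in the high glucose libraries, against 181 to 341 FPKM in the normal glucose libraries. A large part of these sums was in the keratins. KRT18 averaged 241 FPKM in high glucose and 63.8 FPKM in normal glucose, and KRT8 averaged 146 FPKM and 44.9 FPKM. The median log2 change of the 12 markers was -0.16, with 7 below 0, and without the third normal glucose library it was 0.15. Of 10 fibroblast markers 1 was higher, PDGFRB (log2 change 0.68, edgeR adjusted p = 0.00572), and 2 were lower, TWIST1 (log2 change -0.89, edgeR adjusted p = 0.0203) and COL1A1 (log2 change -2.49, edgeR adjusted p = 0.0302), with sums of 27.7 to 28.2 FPKM in high glucose and 21.2 to 32.8 FPKM in normal glucose. COL1A1 had 8.57, 7.86 and 8.15 CPM in the high glucose libraries, against 86.4, 39.2 and 12.9 CPM in the normal glucose libraries, and the first normal glucose library also stood above the rest in the fibroblast list as a whole. Without it the log2 change of COL1A1 was -1.67, and the median of the list was 0.44, against -0.63 with all libraries. The call of COL1A1 was lost without high glucose library 1, 2 or 3 (adjusted p 0.099, 0.108 and 0.104), without normal glucose library 1 or 2 (adjusted p 0.0629 and 0.0663), with limma on log2(FPKM + 1) (0.0969) or with limma on log2(FPKM + 0.1) (0.0688), and its adjusted p over all alternatives was 4.38e-05 to 0.108. The calls of KRT18 and PDGFRB held under all alternatives, and those of KRT8, EZR, BEST1, MERTK and TWIST1 were each lost without 1 or another of the libraries. Of 6 leukocyte markers PTPRC and CD3E were at or near 0, and among the 4 tested CD14 alone had an unadjusted p under 0.05 (log2 change -1.85, edgeR adjusted p = 0.134). CD68 lies in a locus with SENP3 and EIF4A1. The part of these shifts in the values of the enzymes was not tested.

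Of the 78 enzymes, 74 had enough counts to be tested, and 19 of these were called, with 5 higher and 14 lower in high glucose. A locus is called where the edgeR quasi-likelihood test gives a Benjamini-Hochberg adjusted p under 0.05 over all 25025 tested loci, 19.6% of which were called, 9.75% higher and 9.86% lower. Protein-coding loci had a called share of 25.5%, made up of 13.1% higher and 12.4% lower, so the share of called enzymes (25.7%) is close to that of other genes. Higher calls made up 6.76% of the enzymes and lower calls 18.9%. Of 8 tested loci shared with another named gene 0 were higher and 3 lower (PRMT1, KDM4A and SIRT7). Of the 66 other tested loci 5 were higher and 11 lower. The groups did not overlap in 37 of the 74 enzymes (50.0%), against 49.5% of the protein-coding loci. PRMT8, KDM4E, KDM4F and DNMT3L were not tested. The median log2 change of the tested enzymes was -0.07, beside 0.01 for protein-coding loci. Among writers 3 of 40 were called higher and 8 lower, and among erasers 2 of 34 were called higher and 6 lower. The median log2 change was -0.14 for writers (-0.20 to -0.07 over the alternatives) and 0.05 for erasers (-0.01 to 0.10, below 0 without high glucose library 2). Without the third normal glucose library 30 enzymes were called, all 19 of the above among them and in addition PRMT3, PRMT7, SETD2, SETD4, EHMT2, KMT2C, KAT2B, KDM4D, HDAC5, HDAC7 and TET3. Calls over all loci also rose without that library, to 7615, against 4906 with all libraries. Without high glucose library 1, 2 or 3 there were 6, 7 and 6 called enzymes, beside 1631, 1421 and 1507 called loci of all kinds. Without normal glucose library 1 or 2 there were 13 and 12 called enzymes, beside 2846 and 2727 called loci.

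**Figure D1:**
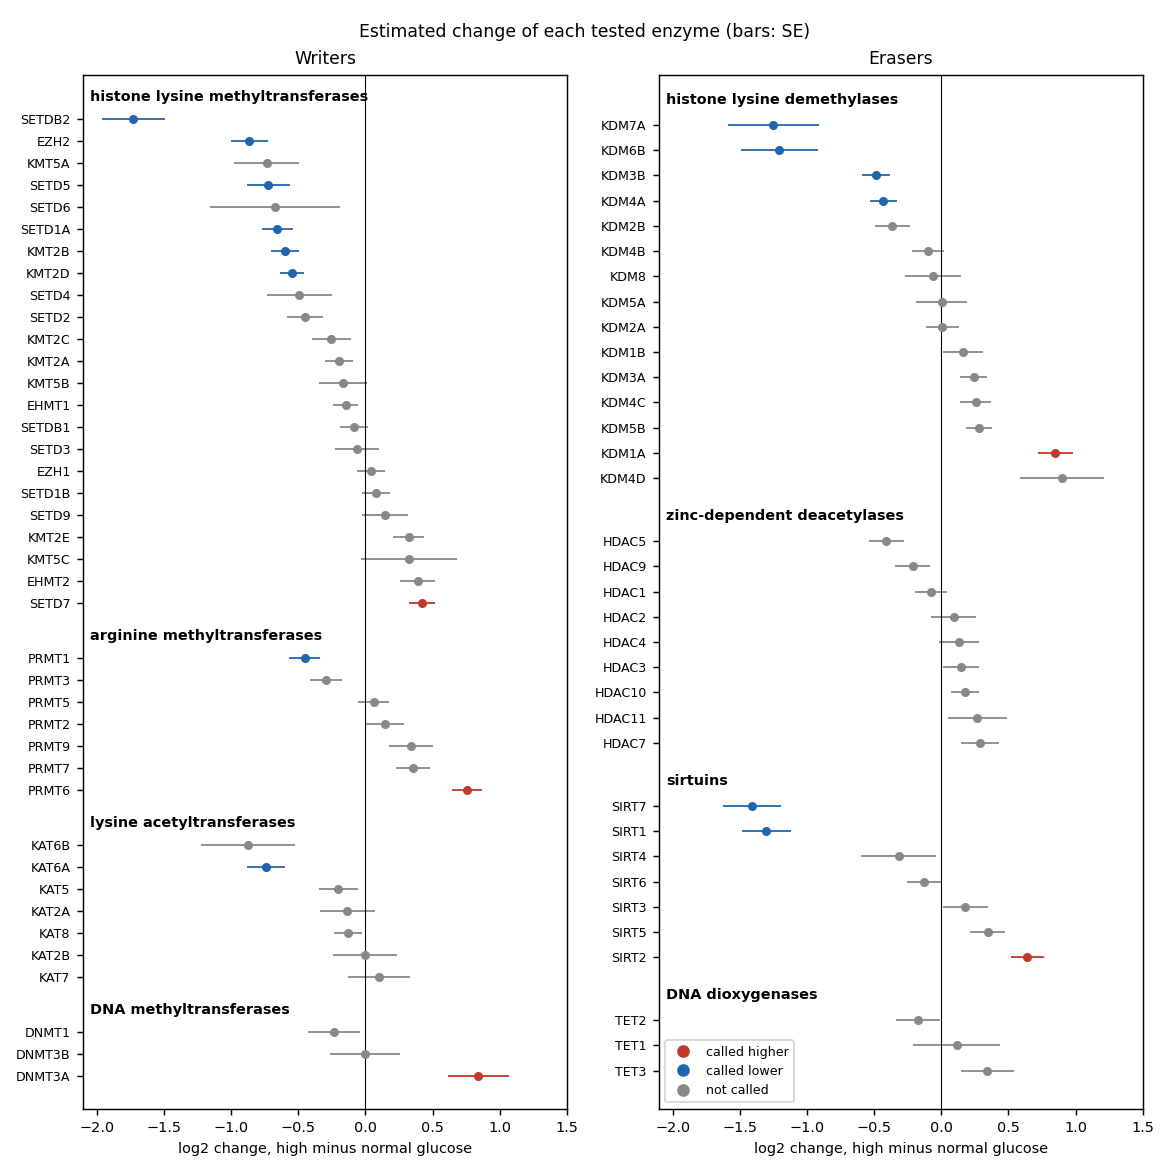
Estimated log2 change (high minus normal glucose) of the 74 tested enzymes by class, writers on the left and erasers on the right, with points for edgeR estimates and bars for 1 SE. The 14 enzymes called lower reach -1.73 (SETDB2), and the 5 called higher reach 0.85 (KDM1A); grey points did not pass the test.

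**Figure D2:**
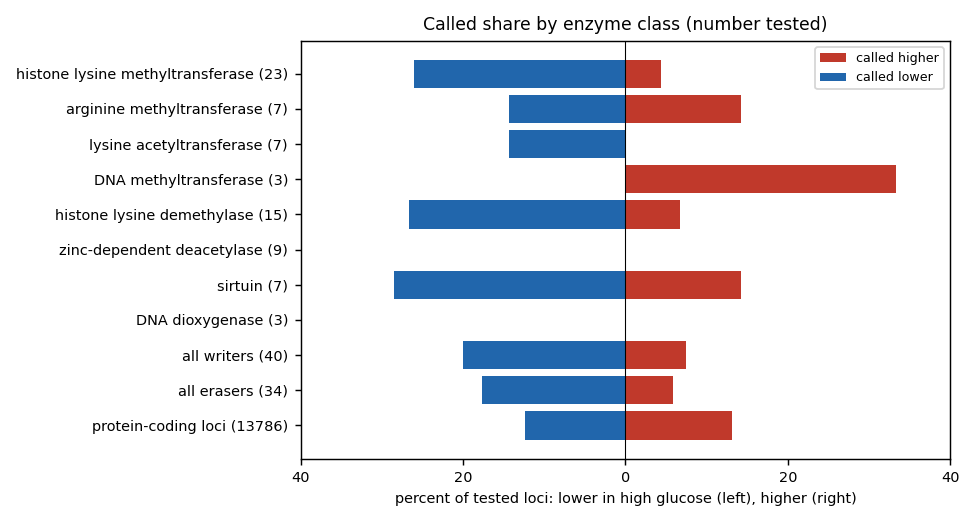
Percent of the tested loci of each class that were called lower (left of 0) or higher (right of 0) in high glucose, with the number tested in parentheses and the protein-coding loci at the bottom. No bar stands for the zinc-dependent deacetylases and the DNA dioxygenases, and several classes hold 7 enzymes or fewer, so a single enzyme makes up a large part of their bar.

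Among the 23 lysine methyltransferases 6 were lower and 1 was higher in high glucose, with a median log2 change of -0.20. Their called share was 30.4%, against 25.5% of protein-coding loci, and their share called lower 26.1%, against 12.4%. SETDB2, of the SETDB family of H3 lysine 9 methyltransferases (chr13:49444170-49495003, plus strand), had 12.4, 13.4 and 14.2 CPM in the high glucose libraries, against 50.02, 53.1 and 29.1 CPM in the normal glucose libraries. Every high glucose library was far below every normal glucose library, and the third normal glucose library was the nearest to them. The means were 13.3 ± 0.914 CPM in high glucose and 44.1 ± 13.1 CPM in normal glucose (SD, n = 3 each; log2 change -1.73, SE 0.235, edgeR adjusted p = 0.0057), the largest drop among the enzymes, and the call held under all 16 alternatives (adjusted p 1.41e-09 to 0.0358). The other enzymes of this mark were not called: SETDB1 (log2 change -0.08), EHMT1 (-0.15), whose locus also holds ARRDC1, and EHMT2 (0.39), the G9a enzyme. EHMT2 passed the threshold without the third normal glucose library (log2 change 0.52, adjusted p = 0.00518, within 0.00518 to 0.2 over the alternatives), with voom (0.0482) and with limma on log2(FPKM + 1) (0.0494) and log2(FPKM + 0.1) (0.048).

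EZH2, the catalytic subunit of the polycomb complex PRC2, which methylates H3 lysine 27 (chr7:148807383-148884291, minus strand), had 10.1, 9.38 and 9.65 CPM in the high glucose libraries, against 18.6, 18.5 and 15.9 CPM in the normal glucose libraries. The groups did not overlap, and the spread within each was small. EZH2 averaged 9.71 ± 0.370 CPM in high glucose and 17.7 ± 1.53 CPM in normal glucose (SD, n = 3 each; log2 change -0.86, SE 0.136, edgeR adjusted p = 0.00839). The call of EZH2 was lost without high glucose library 2 (adjusted p 0.0522), and its adjusted p over all alternatives was 7.22e-08 to 0.0522. Its paralogue EZH1 did not pass the test (log2 change 0.04, SE 0.104, edgeR adjusted p = 0.819) and had 47.3, 47.9 and 43.1 CPM in the high glucose libraries, against 45.2, 46.4 and 42.8 CPM in the normal glucose libraries, with overlapping groups. On the deposited FPKM scale, which is per length, EZH1 was the more abundant of the pair in both groups, at 5.42 FPKM in high glucose and 5.13 FPKM in normal glucose, while EZH2 was at 1.72 FPKM in high glucose and 3.04 FPKM in normal glucose.

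3 of the 7 methyltransferases of H3 lysine 4 were lower (42.9%), against 12.4% of protein-coding loci. KMT2D, an enzyme of enhancer methylation (chr12:49018978-49060794, minus strand), had 209.8, 219 and 211 CPM in the high glucose libraries, against 321, 314 and 299.6 CPM in the normal glucose libraries, and it averaged 213 ± 5.22 CPM in high glucose and 312 ± 11.1 CPM in normal glucose (SD, n = 3 each; log2 change -0.55, SE 0.0905, edgeR adjusted p = 0.00963). KMT2B, another enzyme of the family (chr19:35717973-35738878, plus strand), had 44.8, 44.6 and 40.8 CPM in the high glucose libraries, against 63, 70.4 and 63.8 CPM in the normal glucose libraries. It averaged 43.4 ± 2.29 CPM in high glucose and 65.7 ± 4.05 CPM in normal glucose (SD, n = 3 each; log2 change -0.60, SE 0.105, edgeR adjusted p = 0.0116). In both genes all high glucose libraries lay below all normal glucose libraries. SETD1A, the catalytic subunit of a SET1/COMPASS complex (chr16:30957275-30984664, plus strand), had 71.99, 67.4 and 66.3 CPM in the high glucose libraries, against 93.5, 116 and 114 CPM in the normal glucose libraries. The first normal glucose library was the nearest to high glucose here, and SETD1A averaged 68.6 ± 3.004 CPM in high glucose and 108 ± 12.5 CPM in normal glucose (SD, n = 3 each; log2 change -0.65, SE 0.119, edgeR adjusted p = 0.0126). The call of KMT2D was lost without high glucose library 1, 2 or 3 (adjusted p 0.056, 0.054 and 0.0578), and its adjusted p over all alternatives was 2.36e-06 to 0.0578. KMT2B was not called without high glucose library 1, 2 or 3 (adjusted p 0.0527, 0.0562 and 0.063), and its adjusted p over all alternatives was 2.39e-05 to 0.063. SETD1A lost its call without high glucose library 1, 2 or 3 (adjusted p 0.0526, 0.0666 and 0.0665), and its adjusted p over all alternatives was 0.000123 to 0.0666. The remaining family members KMT2A, KMT2C and SETD1B were not called, at log2 changes of -0.20, -0.25 and 0.08, and the KMT2A locus also holds ATP5MG, TTC36 and TMEM25. KMT2C was called without the third normal glucose library (log2 change -0.37, adjusted p = 0.0294, within 0.0294 to 0.546 over the alternatives).

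SETD7 was the only lysine methyltransferase called higher. It adds 1 methyl group to H3 lysine 4 and also acts on other proteins (chr4:139495941-139606699, minus strand). It had 352, 377 and 379 CPM in the high glucose libraries, against 285, 257 and 284 CPM in the normal glucose libraries, with every high glucose library above every normal glucose library. SETD7 averaged 369 ± 14.9 CPM in high glucose and 275 ± 15.9 CPM in normal glucose (SD, n = 3 each; log2 change 0.42, SE 0.0971, edgeR adjusted p = 0.0253). Over all libraries it had the highest mean FPKM of its class, while in normal glucose SETD3 was above it (17.3 against 15.8 FPKM). The call of SETD7 was lost without high glucose library 1, 2 or 3 (adjusted p 0.0767, 0.108 and 0.101) or without normal glucose library 1 or 2 (adjusted p 0.0533 and 0.0622), and its adjusted p over all alternatives was 0.00301 to 0.108. SETD5, a SET domain protein (chr3:9397615-9478154, plus strand), was lower, at 90.1, 91.4 and 94.9 CPM in the high glucose libraries, against 189, 133 and 133 CPM in the normal glucose libraries. The first normal glucose library stood above the rest, and the other two of its group were close together. SETD5 averaged 92.2 ± 2.45 CPM in high glucose and 152 ± 32.6 CPM in normal glucose (SD, n = 3 each; log2 change -0.72, SE 0.157, edgeR adjusted p = 0.0218). SETD5 was not called without high glucose library 1, 2 or 3 (adjusted p 0.0853, 0.0878 and 0.0801), and its adjusted p over all alternatives was 0.00127 to 0.0878.

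Several lysine methyltransferases lay just outside the threshold. SETD2, which trimethylates H3 lysine 36, had 114, 136 and 128 CPM in the high glucose libraries, against 176, 192 and 146 CPM in the normal glucose libraries (log2 change -0.45, SE 0.134, edgeR adjusted p = 0.0569). KMT5A, which monomethylates H4 lysine 20, had 47.4, 41.6 and 25.7 CPM in the high glucose libraries, against 74.6, 52.7 and 63.5 CPM in the normal glucose libraries (log2 change -0.73, SE 0.242, edgeR adjusted p = 0.076). The groups did not overlap in either gene, and both passed the threshold with DESeq2 (adjusted p = 0.0292 and 0.0271), within ranges over the alternatives of 0.00995 to 0.19 for SETD2 and 0.0271 to 0.199 for KMT5A. KMT5A has pseudogene copies listed as loci of their own, so its count is uncertain. SETD2 and SETD4 were called without the third normal glucose library, SETD2 with an adjusted p of 0.00995 and SETD4 at a log2 change of -0.70 (0.0232, within 0.0232 to 0.454 over the alternatives), against -0.49 with all libraries. SETD2 also passed with counts divided by 4 (0.0449) and with voom (0.048). The uncalled lysine methyltransferases spanned log2 changes of -0.73 to 0.39. SETD3, which is known as an actin histidine methyltransferase, was among the most abundant of the class, at 17.03 FPKM in high glucose and 17.3 FPKM in normal glucose (log2 change -0.06, edgeR adjusted p = 0.825).

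Among the 7 tested arginine methyltransferases 1 was higher and 1 was lower, a called share of 28.6%, against 25.5% of protein-coding loci. PRMT6, which places asymmetric dimethylation on H3 arginine 2 (chr1:107056674-107067636, plus strand), had 42.2, 42.1 and 43.5 CPM in the high glucose libraries, against 25.8, 22.9 and 26.9 CPM in the normal glucose libraries. The 3 high glucose libraries were close together and above all normal glucose libraries. PRMT6 averaged 42.6 ± 0.805 CPM in high glucose and 25.2 ± 2.06 CPM in normal glucose (SD, n = 3 each; log2 change 0.76, SE 0.113, edgeR adjusted p = 0.00734), and its call held under all 16 alternatives (adjusted p 3.01e-07 to 0.0426). PRMT1, the main enzyme of asymmetric arginine dimethylation, shares its locus with ADM5 (chr19:49675786-49690575, plus strand). The locus had 109, 119 and 121 CPM in the high glucose libraries, against 166, 171 and 141 CPM in the normal glucose libraries, a difference in the other direction with no overlap. It averaged 116 ± 6.53 CPM in high glucose and 159 ± 16.1 CPM in normal glucose (SD, n = 3 each; log2 change -0.45, SE 0.113, edgeR adjusted p = 0.0335). The call of PRMT1 was lost without high glucose library 1, 2 or 3 (adjusted p 0.132, 0.111 and 0.102), without normal glucose library 1 or 2 (adjusted p 0.0909 and 0.0902) or with no filter on low counts (0.0501), and its adjusted p over all alternatives was 0.00541 to 0.132.

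PRMT5, the main enzyme of symmetric arginine dimethylation, had the highest FPKM of all the enzymes and did not pass the test. It had 126, 134 and 143 CPM in the high glucose libraries, against 121, 144 and 121 CPM in the normal glucose libraries (log2 change 0.06, SE 0.115, edgeR adjusted p = 0.741), and the groups overlapped. PRMT2, PRMT3, PRMT7 and PRMT9 were not called either, at log2 changes of 0.14, -0.29, 0.36 and 0.34. Without the third normal glucose library PRMT3 (log2 change -0.35, adjusted p = 0.0421, within 0.0421 to 0.345 over the alternatives) and PRMT7 (log2 change 0.41, adjusted p = 0.0408, within 0.0395 to 0.244 over the alternatives) were called, and DESeq2 called PRMT7 (0.0395). PRMT8, known from brain, had 4 counts in 1 high glucose library and none in the others, below the floor of 12 counts per library (0.137 to 0.147 CPM).

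Of the 7 lysine acetyltransferases KAT6A was called, in the lower direction, a called share of 14.3%, against 25.5% of protein-coding loci. KAT6A, the MOZ enzyme (chr8:41929479-42051994, minus strand), had 68.7, 72.04 and 53.2 CPM in the high glucose libraries, against 116, 105 and 103 CPM in the normal glucose libraries. The third high glucose library was the lowest, and the groups did not overlap. It averaged 64.7 ± 10.05 CPM in high glucose and 108 ± 7.02 CPM in normal glucose (SD, n = 3 each; log2 change -0.74, SE 0.140, edgeR adjusted p = 0.0143). The call of KAT6A was lost without high glucose library 1 or 3 (adjusted p 0.0535 and 0.0508), and its adjusted p over all alternatives was 0.000177 to 0.0535. Its paralogue KAT6B had 13.4, 28.9 and 13.5 CPM in the high glucose libraries, against 29.8, 26.95 and 45.4 CPM in the normal glucose libraries (log2 change -0.87, SE 0.352, edgeR adjusted p = 0.128), with the second high glucose library inside the normal glucose range. KAT6B was called without that library (log2 change -1.34, adjusted p = 0.0462, within 0.0462 to 0.319 over the alternatives). KAT2A, the GCN5 enzyme of the SAGA complex, shares its locus with RAB5C and had the highest FPKM of the class. The locus had 142, 145 and 146 CPM in the high glucose libraries, against 132, 129 and 216 CPM in the normal glucose libraries (log2 change -0.14, SE 0.205, edgeR adjusted p = 0.686), and the third normal glucose library stood above all the others. Without it the log2 change of the KAT2A locus was 0.15, of the other sign and not called (adjusted p = 0.162, within 0.162 to 0.875 over the alternatives). KAT2B, its paralogue, was at -0.00 with all libraries and was called higher without the third normal glucose library (log2 change 0.34, adjusted p = 0.0437, within 0.0437 to 1 over the alternatives).

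DNMT3A, a methyltransferase that sets new DNA methylation (chr2:25227855-25342590, minus strand), was higher in high glucose, at 26.7, 20.3 and 22.8 CPM in the high glucose libraries, against 10.7, 10.97 and 17.3 CPM in the normal glucose libraries. The third normal glucose library was the nearest to high glucose, and the groups did not overlap. Another locus named DNMT3A, without an annotated protein-coding transcript, and the pseudogene DNMT3AP1 are listed apart, so the DNMT3A count may not be complete. DNMT3A averaged 23.3 ± 3.24 CPM in high glucose and 13 ± 3.72 CPM in normal glucose (SD, n = 3 each; log2 change 0.84, SE 0.224, edgeR adjusted p = 0.0402). The call of DNMT3A was lost without high glucose library 1, 2 or 3 (adjusted p 0.135, 0.0875 and 0.11), without normal glucose library 1 or 2 (adjusted p 0.113 and 0.115), with limma on log2(FPKM + 1) (0.0568) or with limma on log2(FPKM + 0.1) (0.055), and its adjusted p over all alternatives was 0.0039 to 0.135. DNMT1, which copies methylation after replication, shares its locus with S1PR2 and had 83.9, 85.04 and 81.2 CPM in the high glucose libraries, against 80.6, 83.6 and 129.7 CPM in the normal glucose libraries (log2 change -0.23, SE 0.191, edgeR adjusted p = 0.441). The first 2 normal glucose libraries lay within or next to the high glucose range, and the third stood above. Without the third the log2 change of DNMT1 was 0.02 (adjusted p = 0.852, within 0.281 to 0.852 over the alternatives). DNMT3B, the other enzyme of new methylation, was low in all libraries, at 3.49, 2.78 and 3.93 CPM in the high glucose libraries, against 4.44, 2.74 and 3.03 CPM in the normal glucose libraries (log2 change -0.00, SE 0.260, edgeR adjusted p = 0.999), and its groups overlapped. DNMT3L, a cofactor of germ cells without activity of its own, had no count in any library.

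The third normal glucose library also stood apart in the genes of DNA replication and the cell cycle. The FPKM values of 26 such genes summed to 121.4, 128.4 and 129.9 in the high glucose libraries, against 124.4, 107.6 and 273.9 in the normal glucose libraries. 4 of them were called, all lower: CDC6 (log2 change -1.39, edgeR adjusted p = 0.00524), E2F1 (log2 change -1.62, edgeR adjusted p = 0.029), MCM7 (log2 change -0.66, edgeR adjusted p = 0.0437) and MCM3 (log2 change -0.74, edgeR adjusted p = 0.0473). E2F1, MCM3 and MCM7 lost their calls without high glucose library 1, 2 or 3. The called share of the list was 15.4%, against 25.5% of protein-coding loci. The median log2 change of the list was -0.65 with all libraries and -0.03 without the third normal glucose library, where 4 genes were called higher and 4 lower. E2F1 was then at -1.01 (adjusted p = 0.00438, within 0.000327 to 0.105 over the alternatives), MCM3 at -0.48 and MCM7 at -0.43. The DNMT1 locus, shared with S1PR2, and the KAT2A locus, shared with RAB5C, were highest in the same library. Other enzymes went the other way, and EZH2, KAT7 and KMT2C were lowest of the normal glucose group in it. UHRF1, which brings DNMT1 to replicated DNA, had 16.3, 22.2 and 16.1 CPM in the high glucose libraries, against 4.22, 2.77 and 21.8 CPM in the normal glucose libraries (log2 change 0.93, edgeR adjusted p = 0.412). Without that library UHRF1 was called higher (log2 change 2.38, adjusted p = 0.00191, within 0.00191 to 0.674 over the alternatives). The part of this library's replication genes in the values of the enzymes was not tested.

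**Figure D3:**
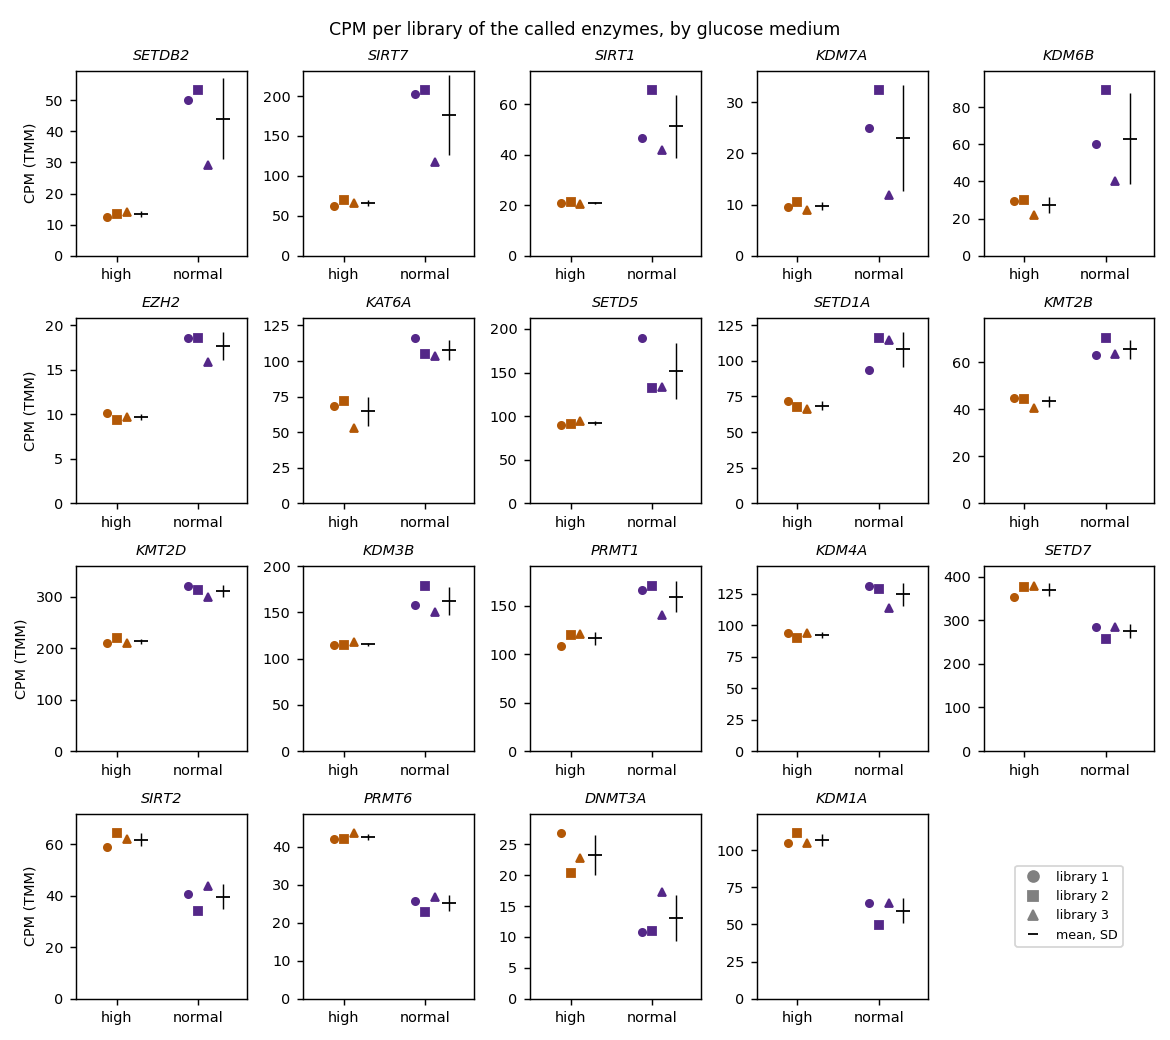
CPM of the 19 called enzymes in each of the 6 libraries, with high glucose on the left and normal glucose on the right of each panel, symbols for the library number, and the mean with SD beside the points. Axes start at 0, and in each panel all high glucose libraries lie on 1 side of all normal glucose libraries.

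Among the 15 tested lysine demethylases 4 were lower and 1 was higher in high glucose. Their called share was 33.3%, against 25.5% of protein-coding loci, and their share called lower 26.7%, against 12.4%. KDM1A, also known as LSD1, a flavin-dependent demethylase of H3 lysine 4 (chr1:23019443-23083689, plus strand), had 105, 111 and 104 CPM in the high glucose libraries, against 64.1, 49.6 and 64.3 CPM in the normal glucose libraries. All high glucose libraries lay above all normal glucose libraries. It averaged 107 ± 3.79 CPM in high glucose and 59.3 ± 8.46 CPM in normal glucose (SD, n = 3 each; log2 change 0.85, SE 0.130, edgeR adjusted p = 0.00782), and its call held under all 16 alternatives (adjusted p 4.46e-06 to 0.0449). The other demethylases of this mark among the loci taken did not pass the test: KDM1B 0.16, KDM5A 0.00 and KDM5B 0.28 on the log2 scale. Together these 4 genes summed to 29.5 to 29.8 FPKM in the high glucose libraries, against 20.1 to 22.4 FPKM in the normal glucose libraries. Most of this difference was in KDM1A, which averaged 14.2 FPKM in high glucose and 7.67 FPKM in normal glucose.

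KDM6B, also known as JMJD3, a demethylase of H3 lysine 27 (chr17:7833968-7854807, plus strand), had 29.6, 30.03 and 22.2 CPM in the high glucose libraries, against 59.9, 88.9 and 40.2 CPM in the normal glucose libraries. The normal glucose libraries were spread widely, all above high glucose. KDM6B averaged 27.3 ± 4.41 CPM in high glucose and 62.98 ± 24.5 CPM in normal glucose (SD, n = 3 each; log2 change -1.21, SE 0.287, edgeR adjusted p = 0.0285). The call of KDM6B was lost without high glucose library 1, 2 or 3 (adjusted p 0.0849, 0.0859 and 0.105), without normal glucose library 1 or 2 (adjusted p 0.07 and 0.0596) or with limma on log2(FPKM + 1) (0.0542), and its adjusted p over all alternatives was 0.000753 to 0.105. KDM7A, a demethylase of H3 lysine 9 and lysine 27 (chr7:140084746-140176983, minus strand), had 9.61, 10.5 and 8.91 CPM in the high glucose libraries, against 25, 32.3 and 11.9 CPM in the normal glucose libraries. Here too the third normal glucose library came close to high glucose. KDM7A averaged 9.69 ± 0.818 CPM in high glucose and 23.1 ± 10.3 CPM in normal glucose (SD, n = 3 each; log2 change -1.25, SE 0.338, edgeR adjusted p = 0.042). The call of KDM7A was lost without high glucose library 1, 2 or 3 (adjusted p 0.126, 0.115 and 0.137), without normal glucose library 1 or 2 (adjusted p 0.111 and 0.113), with limma on log2(FPKM + 1) (0.105) or with limma on log2(FPKM + 0.1) (0.0901), and its adjusted p over all alternatives was 0.00141 to 0.137. The log2 change of KDM7A was -0.93 without the second normal glucose library and -1.56 without the third.

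2 of the 6 tested H3 lysine 9 demethylases of the KDM3 and KDM4 families were lower (33.3%), against 12.4% of protein-coding loci. KDM3B (chr5:138352685-138437028, plus strand), the most abundant demethylase in FPKM over all libraries, had 115, 115 and 117 CPM in the high glucose libraries, against 158, 179 and 149.9 CPM in the normal glucose libraries. The high glucose libraries were nearly alike and lay below all normal glucose libraries. KDM3B averaged 116 ± 1.57 CPM in high glucose and 162 ± 14.8 CPM in normal glucose (SD, n = 3 each; log2 change -0.49, SE 0.104, edgeR adjusted p = 0.0202). The call of KDM3B was lost without high glucose library 1, 2 or 3 (adjusted p 0.0872, 0.0917 and 0.0838) or without normal glucose library 2 (adjusted p 0.0506), and its adjusted p over all alternatives was 0.00109 to 0.0917. KDM4A, which acts on H3 lysine 9 and lysine 36, lies in a locus that also holds ST3GAL3 and MIR6079 (chr1:43650149-43931165, plus strand). The locus had 93.6, 89.7 and 93.9 CPM in the high glucose libraries, against 131, 128 and 114 CPM in the normal glucose libraries, with no overlap. It averaged 92.4 ± 2.30 CPM in high glucose and 125 ± 9.26 CPM in normal glucose (SD, n = 3 each; log2 change -0.43, SE 0.101, edgeR adjusted p = 0.0268). The call of KDM4A was lost without high glucose library 1, 2 or 3 (adjusted p 0.0974, 0.116 and 0.098), without normal glucose library 1 or 2 (adjusted p 0.0744 and 0.0706), with limma on log2(FPKM + 1) (0.0653) or with limma on log2(FPKM + 0.1) (0.0598), and its adjusted p over all alternatives was 0.00245 to 0.116. An antisense gene, KDM4A-AS1, is listed as a locus of its own, and without stated strand the reads of the pair cannot be told apart.

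The paralogues KDM3A, KDM4B and KDM4C were not called, at log2 changes of 0.24, -0.10 and 0.26. KDM4D was low and just outside the threshold, at 2.26, 2.84 and 2.59 CPM in the high glucose libraries, against 1.07, 1.06 and 1.996 CPM in the normal glucose libraries (log2 change 0.90, SE 0.312, edgeR adjusted p = 0.0876). KDM4D passed with DESeq2 (adjusted p = 0.0401) and without the third normal glucose library (log2 change 1.26, adjusted p = 0.00954, within 0.00954 to 0.231 over the alternatives). KDM4E and KDM4F, close copies of KDM4D, had no count in any library. The H3 lysine 36 demethylases KDM2A and KDM2B were at 0.01 (edgeR adjusted p = 0.973) and -0.36 (0.0979) on the log2 scale.

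The sirtuins, deacylases that consume NAD+, held the largest changes among the deacetylases, with 2 of 7 lower and 1 higher. In this small class that is a called share of 42.9%, against 25.5% of protein-coding loci. SIRT1, a nuclear deacetylase of histones and transcription factors (chr10:67884656-67918390, plus strand), had 20.9, 21.2 and 20.3 CPM in the high glucose libraries, against 46.6, 65.4 and 41.8 CPM in the normal glucose libraries. The high glucose libraries were nearly alike and lay far below the lowest normal glucose library. SIRT1 averaged 20.8 ± 0.416 CPM in high glucose and 51.3 ± 12.5 CPM in normal glucose (SD, n = 3 each; log2 change -1.30, SE 0.181, edgeR adjusted p = 0.00604), a 2.47-fold lower level, and the call held under all 16 alternatives (adjusted p 2.56e-08 to 0.0376). SIRT7, a nucleolar deacetylase of H3 lysine 18, shares its locus with MAFG (chr17:81911939-81927735, minus strand). The locus had 62.3, 69.9 and 66.7 CPM in the high glucose libraries, against 203, 207 and 118 CPM in the normal glucose libraries, with the third normal glucose library the nearest to high glucose. It averaged 66.3 ± 3.84 CPM in high glucose and 176 ± 50.4 CPM in normal glucose (SD, n = 3 each; log2 change -1.41, SE 0.218, edgeR adjusted p = 0.00808), and this call also held under all 16 alternatives (adjusted p 3.26e-07 to 0.0438). Reads of SIRT7 and of MAFG, which encodes a small Maf transcription factor, were counted together here.

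SIRT2, a mainly cytoplasmic deacetylase of tubulin and H4 lysine 16 (chr19:38878555-38899862, minus strand), was higher, at 59.1, 64.2 and 62.1 CPM in the high glucose libraries, against 40.7, 34.2 and 43.96 CPM in the normal glucose libraries. The groups did not overlap. SIRT2 averaged 61.8 ± 2.58 CPM in high glucose and 39.6 ± 4.96 CPM in normal glucose (SD, n = 3 each; log2 change 0.64, SE 0.125, edgeR adjusted p = 0.0157). The call of SIRT2 was lost without high glucose library 1, 2 or 3 (adjusted p 0.0572, 0.0736 and 0.0667), and its adjusted p over all alternatives was 0.000439 to 0.0736. SIRT3, SIRT4 and SIRT5, the mitochondrial sirtuins, were not called, at log2 changes of 0.18, -0.32 and 0.34, nor was SIRT6, a nuclear deacetylase of H3 lysine 9 (log2 change -0.13, SE 0.128, edgeR adjusted p = 0.538). The 7 sirtuin loci summed to 28.2 to 28.8 FPKM in the high glucose libraries, against 32.4 to 42.2 FPKM in the normal glucose libraries. In high glucose SIRT2 had the highest level of the class, at 8.18 FPKM, and SIRT7 with MAFG stood at 4.84 FPKM. In normal glucose the SIRT7 locus led at 12.5 FPKM, and SIRT2 stood at 5.09 FPKM.

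None of the 9 zinc-dependent deacetylases was called by edgeR with all libraries, against 25.5% of protein-coding loci, and their log2 changes were -0.41 to 0.29. 1 of the 9 had an unadjusted p under 0.05, and DESeq2 called 1, limma with voom 0 and limma on log2(FPKM + 1) 0. That gene was HDAC5, a class IIa deacetylase, which had 37.9, 36.9 and 42.5 CPM in the high glucose libraries, against 50.3, 58.6 and 46.9 CPM in the normal glucose libraries (log2 change -0.41, SE 0.128, edgeR adjusted p = 0.0643). Its groups did not overlap, and DESeq2 gave an adjusted p of 0.0328, with 0.0266 to 0.207 over the alternatives. HDAC5 was also called with counts divided by 4 (0.0482) and without the third normal glucose library (0.0266). HDAC7, another class IIa deacetylase, was called higher without that library (log2 change 0.42, adjusted p = 0.0276, within 0.0276 to 0.452 over the alternatives), against a log2 change of 0.29 with all libraries. HDAC1, a subunit of the NuRD, Sin3 and CoREST corepressors, had the highest FPKM of the class and 60.5, 59.9 and 59.9 CPM in the high glucose libraries, against 56.04, 62.04 and 72.3 CPM in the normal glucose libraries (log2 change -0.08, SE 0.121, edgeR adjusted p = 0.691), with overlap. HDAC2 and HDAC3 were at 0.09 (edgeR adjusted p = 0.742) and 0.15 (0.501) on the log2 scale.

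None of the 3 TET dioxygenases, which oxidise methylcytosine, was called, against 25.5% of protein-coding loci. None had an unadjusted p under 0.05, and neither DESeq2 nor limma called any. TET2 had the highest FPKM of the 3, with 46.9, 34.8 and 44.8 CPM in the high glucose libraries, against 41.5, 55.7 and 45.5 CPM in the normal glucose libraries (log2 change -0.17, SE 0.166, edgeR adjusted p = 0.509). The groups overlapped. TET3 had 30.5, 30.96 and 36.7 CPM in the high glucose libraries, against 21.97, 22.01 and 33.4 CPM in the normal glucose libraries (log2 change 0.34, SE 0.195, edgeR adjusted p = 0.264). The third normal glucose library lay inside the high glucose range, and without it TET3 was called (adjusted p = 0.0174, within 0.0174 to 0.529 over the alternatives).

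**Figure D4:**
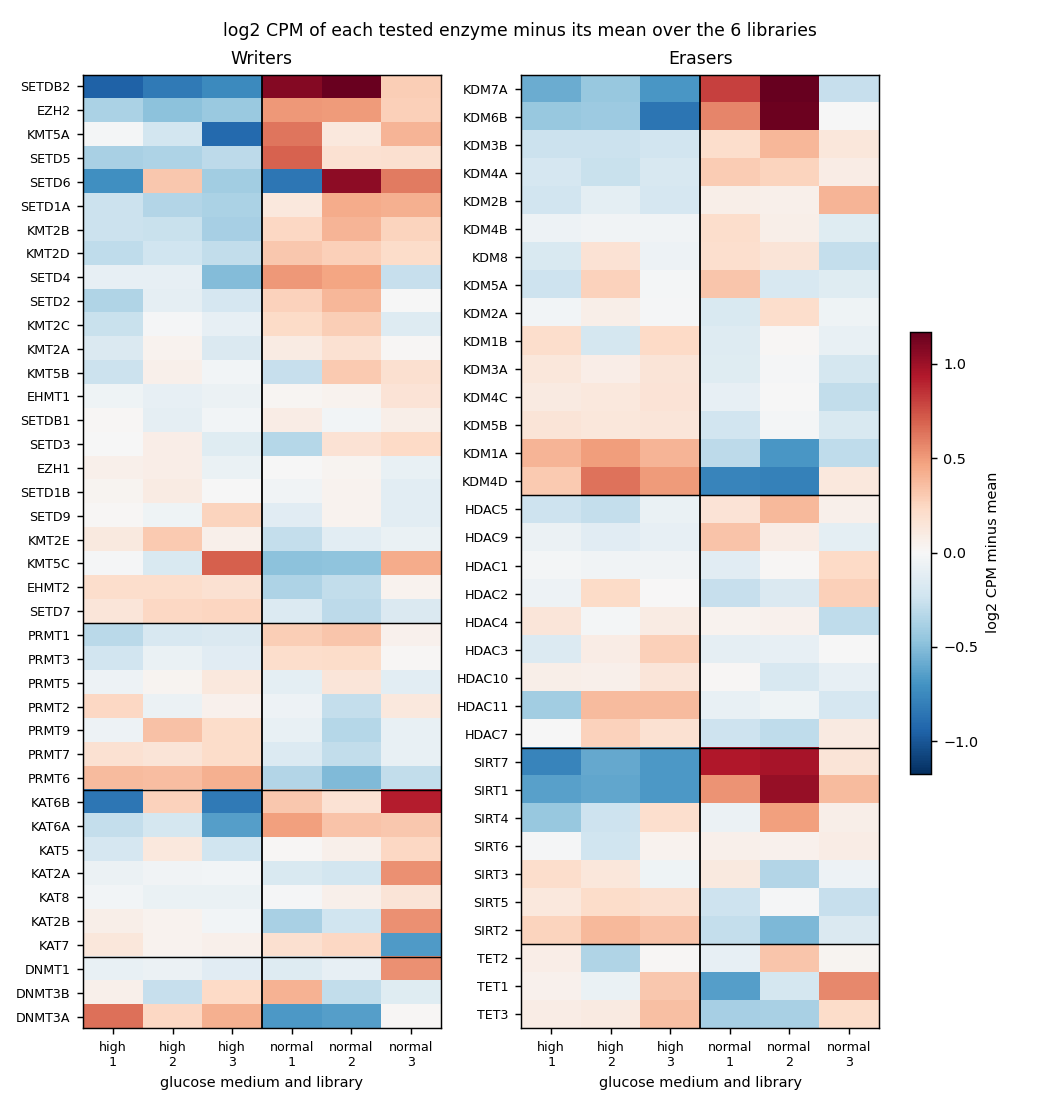
log2 CPM of each tested enzyme minus its mean over the 6 libraries (colour scale), with writers on the left and erasers on the right, high glucose libraries before normal glucose libraries, and lines between classes. The rows run from the lowest to the highest log2 change within a class, and the third normal glucose library is the palest of its group in SETDB2, KDM7A, SIRT7 and SIRT1.

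The spread between libraries was smaller in high glucose, where the median coefficient of variation of the tested enzymes was 6.12%, against 13.4% in normal glucose. Protein-coding loci showed 8.47% in high glucose and 18.2% in normal glucose. The third normal glucose library was the nearest of its group to high glucose in 11 of the 14 enzymes called lower and in 4 of the 5 called higher. No such count was made over all loci. On the first principal component over all tested loci that library was also the nearest of its group, at 49.9, against 88.4 and 105.8. 13 of the 19 calls were lost without high glucose library 1, 13 without library 2 and 13 without library 3. 6 were lost without the first normal glucose library, 7 without the second and 0 without the third. SIRT1, SIRT7, SETDB2, KDM1A and PRMT6 were called under every alternative run.

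**Figure D5:**
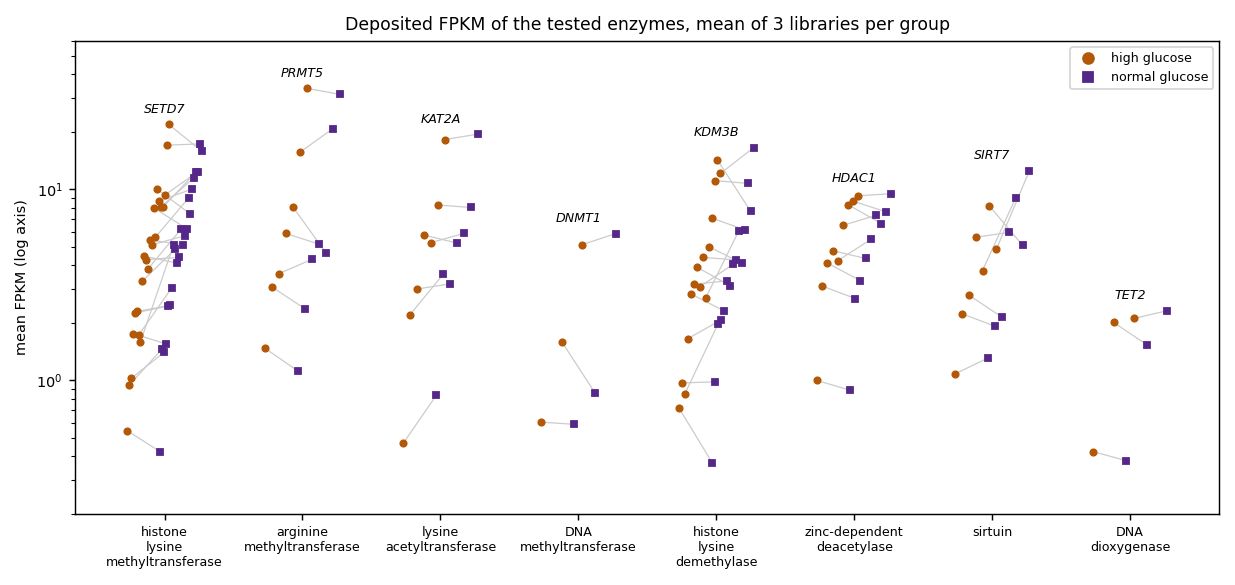
Mean deposited FPKM (log axis) of each tested enzyme in high glucose (circles) and normal glucose (squares), with lines joining the values of 1 enzyme, by class. PRMT5 had the highest level, and the named gene is the one with the highest mean over all libraries in each class.

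Partners of the enzymes were read from lists that name the subunits of their complexes. The called share was 33.3% for the PRC2 list and 23.1% for the COMPASS list, against 25.5% of protein-coding loci. Lower calls made up 33.3% of the PRC2 list and 15.4% of the COMPASS list, against 12.4% of protein-coding loci. Of 9 tested PRC2 subunits and partners 3 were called, all lower: PHF1, a Tudor protein of PRC2 (log2 change -1.05, edgeR adjusted p = 0.00524), JARID2, which helps PRC2 bind chromatin (log2 change -0.59, edgeR adjusted p = 0.0178), and SUZ12, a core subunit (log2 change -0.45, edgeR adjusted p = 0.0184). SUZ12 had 65.8, 68.4 and 67.2 CPM in the high glucose libraries, against 88.7, 90.8 and 95.4 CPM in the normal glucose libraries, without overlap. The call of SUZ12 was lost without high glucose library 1, 2 or 3 (adjusted p 0.0876, 0.0818 and 0.0842), and its adjusted p over all alternatives was 0.000279 to 0.0876. EED, the other core subunit, was not called (log2 change -0.13, edgeR adjusted p = 0.567). Among 13 MLL/COMPASS subunits 1 was higher and 2 were lower. Those lower were PSIP1 (log2 change -0.49, edgeR adjusted p = 0.0188) and PAXIP1 (log2 change -0.64, edgeR adjusted p = 0.0216), and the locus called higher holds PAGR1 together with MAZ, PRRT2 and MVP (log2 change 0.62, edgeR adjusted p = 0.0368). With 1 library left out the PRC2 list had 0 to 1 higher and 1 to 3 lower, and the COMPASS list 0 to 1 higher and 0 to 3 lower.

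Of 30 tested subunits and enzymes of histone acetylation outside the KAT symbols 10 were lower and 1 was higher, with a median log2 change of -0.33. Lower calls made up 33.3% of this list and higher calls 3.33%, against 12.4% and 13.1% of protein-coding loci. CREBBP, an acetyltransferase of enhancers, had 99.6, 112 and 98.7 CPM in the high glucose libraries, against 173, 192 and 141 CPM in the normal glucose libraries. Every high glucose library was below every normal glucose library (log2 change -0.71, SE 0.137, edgeR adjusted p = 0.0155). The call of CREBBP was lost without high glucose library 1, 2 or 3 (adjusted p 0.0718, 0.0559 and 0.0755), and its adjusted p over all alternatives was 0.000331 to 0.0755. ATF2, a transcription factor, and EPC2, a subunit of the NuA4 acetyltransferase complex, were lower as well, at -0.83 (edgeR adjusted p = 0.0103) and -0.79 (0.0119) on the log2 scale. EP300, the paralogue of CREBBP, was lower as well (log2 change -0.37, edgeR adjusted p = 0.0448). With 1 library left out the list had 0 to 2 higher and 0 to 15 lower. In 25 tested corepressor subunits 3 were higher and 2 lower, a called share of 20%, against 25.5% of protein-coding loci. NCOR1, a scaffold of a corepressor complex, was lower (log2 change -0.56, edgeR adjusted p = 0.0159). MIDEAS, a scaffold of an HDAC1 complex, was higher (log2 change 0.73, edgeR adjusted p = 0.0162).

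Other methyltransferases had 2 of 15 higher and 2 lower: METTL5, known as a methyltransferase of ribosomal RNA (log2 change 0.54, edgeR adjusted p = 0.0176), and CARM1, an arginine methyltransferase (log2 change 0.43, edgeR adjusted p = 0.0443), were higher, and NSD3 (log2 change -0.71, edgeR adjusted p = 0.0272) and SMYD2 (log2 change -0.43, edgeR adjusted p = 0.0317) were lower. Other demethylases and JmjC proteins had 1 of 14 higher, HIF1AN, known as an asparagine hydroxylase of HIF (log2 change 0.50, edgeR adjusted p = 0.0173), and 2 lower, JMJD1C (log2 change -0.79, edgeR adjusted p = 0.0199) and JMJD8 (log2 change -0.52, edgeR adjusted p = 0.0433). Of 13 partners and readers of DNA methylation 1 was higher, TDG, a glycosylase that removes oxidised methylcytosine (log2 change 0.56, edgeR adjusted p = 0.0347), and 2 were lower, GADD45B (log2 change -0.59, edgeR adjusted p = 0.0202) and OGT, the O-GlcNAc transferase that binds TET proteins (log2 change -0.56, edgeR adjusted p = 0.0492). With 1 library left out the corepressor list had 1 to 4 higher and 0 to 7 lower. With 1 library left out there were 0 to 3 higher and 0 to 2 lower among these methyltransferases, 0 to 1 higher and 0 to 3 lower among the demethylases and JmjC proteins, and 0 to 2 higher and 0 to 3 lower among the genes of DNA methylation. With all libraries the called shares of these lists were, in the same order, 26.7%, 21.4% and 23.1%, against 25.5% of protein-coding loci.

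Genes that supply the cofactors were mixed, with 2 of 28 higher and 6 lower and a median log2 change of -0.17. Their called share was 28.6%, against 25.5% of protein-coding loci. With 1 library left out there were 1 to 5 higher and 1 to 9 lower. NMNAT1, which makes nuclear NAD+, was higher, at 19.7, 18.9 and 19.2 CPM in the high glucose libraries, against 9.69, 6.11 and 8.45 CPM in the normal glucose libraries (log2 change 1.25, SE 0.192, edgeR adjusted p = 0.00782). The groups did not overlap. IDH3A, a subunit of the NAD-dependent isocitrate dehydrogenase that makes 2-oxoglutarate, was lower (log2 change -0.88, edgeR adjusted p = 0.00475), and so was ACSS1, an acetyl-CoA synthetase of mitochondria (log2 change -1.78, edgeR adjusted p = 0.00973). ACSS1 was low in all libraries, at 0.964, 0.912 and 0.850 CPM in high glucose, against 4.11, 3.16 and 2.12 CPM in normal glucose. IDH1 and IDH2, which make 2-oxoglutarate with NADP+ in cytosol and mitochondria, were also called, and are described after their values were seen. IDH1 had 64.2, 78.1 and 63.2 CPM in the high glucose libraries, against 516, 639 and 152 CPM in the normal glucose libraries (log2 change -2.67, SE 0.483, edgeR adjusted p = 0.0125). IDH2 had 49.6, 50.5 and 51.03 CPM in the high glucose libraries, against 17.2, 11.8 and 29.1 CPM in the normal glucose libraries (log2 change 1.38, SE 0.305, edgeR adjusted p = 0.0229). IDH1 was lower and IDH2 higher in every high glucose library than in any normal glucose library, and the third normal glucose library was the nearest to high glucose in both. The call of IDH1 was lost without high glucose library 1, 2 or 3 (adjusted p 0.0586, 0.0554 and 0.0612), and its adjusted p over all alternatives was 5.78e-08 to 0.0612. IDH2 lost its call without high glucose library 1, 2 or 3 (adjusted p 0.0734, 0.0782 and 0.078) or without normal glucose library 1 (adjusted p 0.0777), and its adjusted p over all alternatives was 0.000262 to 0.0782. The remaining called genes of this list, AHCY, NNMT and NMNAT2, were all lower in high glucose. NAMPT, the rate-limiting enzyme of NAD+ salvage, was just outside the threshold (log2 change -0.35, edgeR adjusted p = 0.0542). Over all the lists, cell type markers included, 52 genes were called, and 7 of them were called under all alternatives, among them CDC6, IDH3A, KRT18, NMNAT1, PDGFRB and PHF1. Without high glucose library 1, 2 or 3 the calls lost were 44, 45 and 43, and without normal glucose library 1, 2 or 3 they were 27, 27 and 1. No value changed sign.

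Promoter windows of 250 bases before to 50 after the start were found for 71 of the 78 enzymes. CCAAT was present on either strand in 29.6% of these windows, against 36.03% of the windows of 10665 tested protein-coding loci. CACGTG was present in 16.9% of the enzyme windows, against 9.49%. The E2F motifs TTTGGCGC, TTTCGCGC and TTTCCCGC were present in 5.63%, against 4.43%. The NRF2 motif TGACNNNGC was present in 7.04%, against 15.0%, and the ATF4 motif TGATGNAA in none of the 71, against 1.91%. 6 of 12 windows of enzymes called lower held CCAAT, 1 of 5 of those called higher and 13 of 52 of those not called. 2 matches overlapped a match of a different motif, and no test was made of these shares. The enzyme windows held a median of 30 CG dinucleotides, against 26 in the other windows.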

How the data were processed

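RNA libraries of ARPE-19 cells were compared, 3 after 72 h in high glucose and 3 after 72 h in normal glucose. Per the labels' protocols, Trizol RNA was selected on oligo-dT beads, though the text also speaks of adipose tissue and of poly(A)- fractions, and read as pairs on a NovaSeq. Bowtie 0.12.2 and mm8, a mouse build, appear in the submitters' processing notes, while the deposited loci are human: all 78 enzyme loci overlapped the GRCh38.p14 RefSeq position of their symbol. The aligner and counting settings for the human loci are not given in the sources used here, nor is the use of strand. Coordinates are printed as deposited.

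The authors deposited raw counts per locus, with no normalization, per the file headers. The deposited FPKM values were scaled for length and depth by the authors, per the file headers. Values of 4 were more frequent than 3 or 5 (9555, 4210 and 2659), so a fragment may have been counted about 4 times, in which case depth and counting precision are overstated. Floors were set at 12 counts per library, and cover counting error only. The 37 mitochondrial loci hold 0 counts and were left out.

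Loci were filtered (filterByExpr), scaled by TMM and tested in R 4.3.3 with the quasi-likelihood functions of edgeR 4.0.16 (2-sided, with no covariate beside the group), and p-values were adjusted by Benjamini-Hochberg over all 25025 tested loci. CPM values are counts scaled to the TMM library size. SE is the size of the log2 change divided by the square root of F. The 16 alternatives were DESeq2 1.42.0, 3 other scalings, no filter, counts divided by 4, limma 3.58.1 with voom, limma on deposited FPKM with pseudocounts of 1 and 0.1, a replicate block, and each library left out.

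The members and lists were chosen with earlier results of these data known. Every called member, the member with the highest mean FPKM of each class, and up to 3 called members of each list with the smallest adjusted p are named, except 1 gene that is not reported here. EP300, EED, UHRF1, NAMPT, MCM3, SETD4, KMT2C, KAT2B, HDAC7, CARM1, EZR, MERTK, IDH1, IDH2, AHCY, NNMT, NMNAT2, KMT5AP3 and uncalled paralogues were added after their values were seen.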

Additional observations from a re-analysis of the deposited data

How the results depend on the processing

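Over 16 alternatives the 19 called enzymes gave 304 values, of which 235 were called and 69 were not, and none changed sign. Of 880 values of the 55 other enzymes, 22 passed the threshold and 1 changed sign with a call: KAT2B, at -0.00 over all libraries, was 0.34 (adjusted p = 0.0437; log2 change -0.17 to 0.34 with 1 library left out; adjusted p 0.0437 to 1 over its alternatives) without the third normal glucose library. Other scalings, no filter, counts divided by 4 and voom kept 18 or all 19 of the calls. DESeq2 called 24 enzymes, all 19 among them, and limma on log2(FPKM + 1) called 16, with 3 erasers lower in place of 6. With 1 library left out, 1421 to 7615 loci were called, against 4906 with all of them. Writers called higher then numbered 1 to 6 (3 with all libraries) and lower 2 to 12 (8), and erasers higher 1 to 5 (2) and lower 2 to 7 (6). The highest of these counts were without the third normal glucose library, and the cause was not tested.

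Libraries of the 2 groups share numbers, but same-numbered libraries did not deviate together (correlations of -0.017, -0.00076 and -0.0094), so no pairing was used. With the replicate number as a block, 2545 loci and 10 of the 19 enzymes were called, with 1 writer higher, 5 writers lower, 1 eraser higher and 3 erasers lower. The enzymes not called with the block were SETD1A, SIRT2, SETD5, KDM7A, DNMT3A, KDM3B, SETD7, KDM4A and PRMT1, at adjusted p values up to 0.0951. Counts of 12 or fewer per library limit what can be said of DNMT3L, KDM4E, KDM4F and PRMT8.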
